A study of Homo sapiens with 8 samples.

Results

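Acetylation of histone H3 was described at 8 genes of interferon signalling and response, IFNAR1, JAK2, STAT2, IRF1, IRF9, ISG15, DDX58 and HLA-B, in MIA PaCa-2 cells. The genes were taken by name. Their peaks were the H3K9ac peaks annotated to them and the H3K27ac peaks centred within 2 kb of one of those. This gave 39 of the 57049 peaks and 8 of the 12186 genes named in the H3K9ac lists. The astromal H3K9ac list held 3 of these peaks and the stromal one 18, and each H3K27ac list held 9. All 8 genes were named in the stromal H3K9ac list, and 2, IFNAR1 and IRF1, in the astromal one.

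MIA PaCa-2 is an established human line of pancreatic ductal cancer cells, and all libraries came from this single line. Both groups were grown as spheroids in a hyaluronan gel (Glycosil) linked with PEGDA, under DMEM with 10% serum for the first day and 2% serum after that. The stromal group had the collagen component Gelin-S in the gel and received medium conditioned by immortalised myofibroblasts from human pancreatic tumours. The astromal group had neither, and was fed plain medium with 2% serum. The study set the H3K9ac and H3K27ac marks, both of which are found at active promoters, side by side in these settings. Each mark in each group was 1 library, so no difference below has a replicate check and none was given a p-value.

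Type I interferons bind a receptor made of IFNAR1 and IFNAR2 and switch on kinases of the JAK family. These phosphorylate STAT proteins, and STAT2 enters the complex ISGF3 with IRF9, which binds the interferon-stimulated response element (ISRE) of response genes. Interferon gamma acts through JAK1 and JAK2 and through GAS elements such as the one known in the IRF1 promoter.

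The promoters of the response genes and of IRF9 and IRF1 are shown because they carry short matches to these elements or to a variant of the ISRE. They are RefSeq promoters of build GRCh38.p14, from 250 bases before the annotated start to 50 after it, printed 5′ to 3′ on the gene's strand, with every match in capitals. The letters searched on both strands were GAAANNGAA for the ISRE core, TTCNNNGAA for GAS and GGGNNNTCC for a kappaB-type site. GAANNGAAA, named the shifted core here, was also searched. It is a variant with 1 base fewer between its GAA repeats. The ISG15 window is chr1:1013247-1013546 on the plus strand, and that of DDX58, listed by RefSeq as RIGI, is chr9:32526147-32526446 on the minus strand. IRF9 is at chr14:24161015-24161314 on the plus strand. IRF1 is at chr5:132490724-132491023 and HLA-B at chr6:31357130-31357429, both on the minus strand.
ISG15: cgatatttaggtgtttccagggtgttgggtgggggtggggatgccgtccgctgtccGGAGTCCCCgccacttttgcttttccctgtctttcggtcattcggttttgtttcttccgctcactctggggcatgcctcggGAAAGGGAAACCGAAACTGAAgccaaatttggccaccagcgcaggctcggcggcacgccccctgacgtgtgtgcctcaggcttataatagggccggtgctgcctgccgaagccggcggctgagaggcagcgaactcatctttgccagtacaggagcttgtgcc
DDX58: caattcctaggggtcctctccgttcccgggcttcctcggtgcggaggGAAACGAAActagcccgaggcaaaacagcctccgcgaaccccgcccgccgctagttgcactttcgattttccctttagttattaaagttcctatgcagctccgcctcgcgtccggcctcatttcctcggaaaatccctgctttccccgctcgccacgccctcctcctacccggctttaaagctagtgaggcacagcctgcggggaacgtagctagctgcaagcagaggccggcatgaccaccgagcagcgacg
IRF9: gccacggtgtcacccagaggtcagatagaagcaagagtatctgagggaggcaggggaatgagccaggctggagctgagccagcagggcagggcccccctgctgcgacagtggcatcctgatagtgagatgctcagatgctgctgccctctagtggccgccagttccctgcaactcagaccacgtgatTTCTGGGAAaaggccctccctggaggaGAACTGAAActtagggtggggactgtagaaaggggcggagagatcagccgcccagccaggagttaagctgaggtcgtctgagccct
IRF1: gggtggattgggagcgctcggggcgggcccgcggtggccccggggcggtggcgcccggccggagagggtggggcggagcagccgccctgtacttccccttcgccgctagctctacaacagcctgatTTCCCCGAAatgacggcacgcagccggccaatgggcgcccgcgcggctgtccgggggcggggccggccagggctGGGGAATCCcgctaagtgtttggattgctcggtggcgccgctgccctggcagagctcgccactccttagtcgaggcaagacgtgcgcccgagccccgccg
HLA-B: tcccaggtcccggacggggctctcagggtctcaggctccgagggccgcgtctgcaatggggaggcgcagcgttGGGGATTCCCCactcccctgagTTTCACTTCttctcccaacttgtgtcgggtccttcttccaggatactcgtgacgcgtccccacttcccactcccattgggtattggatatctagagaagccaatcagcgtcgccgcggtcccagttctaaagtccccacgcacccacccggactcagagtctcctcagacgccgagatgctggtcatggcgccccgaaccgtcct

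ISG15 held 3 matches to the ISRE core, starting at positions −113, −107 and −101 from the annotated start and overlapping each other, and a kappaB-type match at −194. The shifted core was found in DDX58 at −203, in IRF9 at −36 and in HLA-B at −155. GAS matches lay in IRF1 at −124 and in IRF9 at −63. IRF1 also had a kappaB-type match at −50, and HLA-B had a pair of overlapping ones at −177 and −175. Of all 35116 RefSeq promoters of this length, 8.11% held the ISRE core, 7.66% the shifted core, 14.5% either of them, 7.66% GAS and 21.0% the kappaB-type letters. The IFNAR1 and STAT2 windows held none of these letters, and 1 of the 4 JAK2 windows held a kappaB-type match at −164. The matches are descriptions of the reference letters, and binding there was not measured. RefSeq windows and peaks are on different builds, so they were not laid over each other. All coordinates from here on are hg19, as in the peak lists.

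Values are deposited tags in a peak, scaled to a library of 10000000 tags, with raw tags in brackets. The level of a gene is the sum over its promoter peaks. An H3K9ac promoter peak is one centred within 1 kb of the start site (TSS) that the list names, and an H3K27ac promoter peak one centred within 2 kb of such a peak. Shares of all genes, also in H3K27ac, therefore cover only genes with an H3K9ac promoter peak in either list. Ratios are log2, stromal over astromal, set to 0 at the median gene with a level in both lists. Intervals are exact Clopper-Pearson intervals at 95% and cover counting error only. Calls of higher or lower needed a change of at least 2-fold from that median and an interval without 0.

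Depth was 3923202 tags in astromal and 7569791 in stromal H3K9ac, both estimated, and 13453902 and 17190695 in H3K27ac. The lists held 7141, 20326, 14489 and 15093 peaks in that order, and their weakest peak had 5, 8, 8 and 9 tags. The weakest peak is the lowest of its whole list and not a calling limit at a given gene. H3K27ac peaks were 197 bp wide in astromal and 175 bp in stromal. Before centring, the stromal over astromal log2 ratio of the median gene was 0.89 in H3K9ac and −0.18 in H3K27ac. Of 8 epithelial and line markers, 1 and 6 had an H3K9ac promoter peak in astromal and stromal and 3 and 4 an H3K27ac peak, with summed levels of 25.5, 276, 72.1 and 108.2, while EPCAM and CDH1 had none in any library. CDKN2A and MTAP, which MIA PaCa-2 has lost, had none either. Of 9 myofibroblast markers 0 and 3 had H3K9ac and 1 and 1 H3K27ac, with summed levels of 0, 76.6, 42.4 and 20.4. COL1A2 had 30.4 in stromal H3K9ac, and 42.4 and 20.4 in astromal and stromal H3K27ac. ACTA2 (29.0) and COL1A1 (17.2) had stromal H3K9ac only. COL3A1, FAP, PDGFRB, DCN, LUM and POSTN were listed at 0 throughout, as were all 4 immune markers. In bulk chromatin, fewer acetylated cells and less acetylation per cell cannot be told apart.

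In H3K9ac, 7 of the 8 genes had promoter peaks in the stromal list only, and IFNAR1 had them in both. Among all 10822 genes with such a peak, 51.4% were in the stromal list only, 47.4% in both and 1.22% in the astromal list only. The 7 genes held 23 to 41 stromal tags. Among the 4580 genes in this range, 49.7% were also stromal only. Absence from a list means that no peak was called, not that no acetylation was present. The stromal library was 1.93 times as deep, and 5.81% of its tags lay in peaks, against 1.76% in astromal H3K9ac. In H3K27ac these shares were 1.97% in stromal and 2.18% in astromal. How much of the difference in detection comes with depth or with the share of tags in peaks was not tested.

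**Figure D1:**
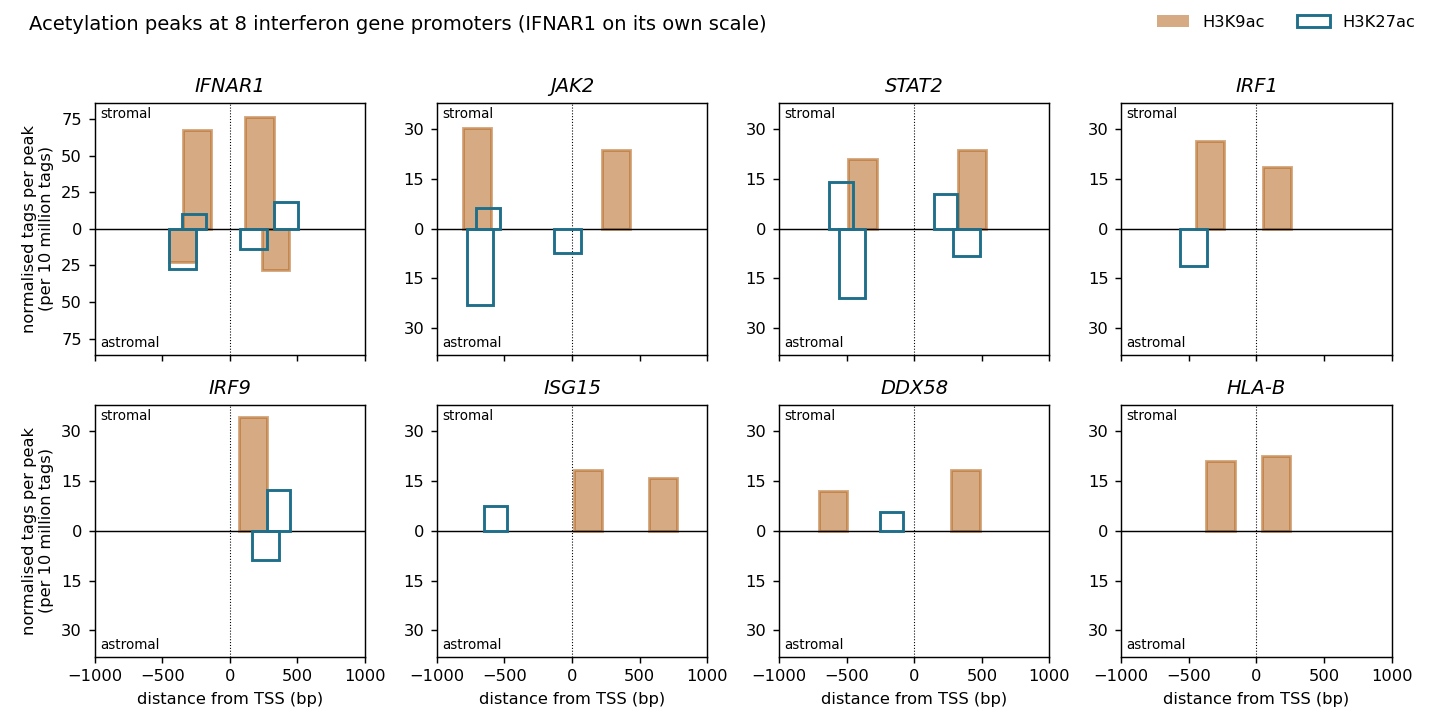
Each panel is 1 gene, with the distance of a peak from the TSS in bp on the horizontal axis and its normalised tags (per 10000000) on the vertical axis, stromal upwards and astromal downwards. Filled boxes are H3K9ac and open boxes H3K27ac, drawn at their called width. The panels span 1000 bp on each side of the TSS, and within them IFNAR1, on a scale of its own, is the only gene with boxes of both marks in both directions.

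IFNAR1, the receptor chain shared by all type I interferons, had the strongest acetylation of the 8 genes. Its TSS is at chr21:34697214 on the plus strand, with 1 peak on each side of it in every library. In H3K9ac the astromal peaks held 22.9 (9 tags, centred 348 bp upstream, annotated promoter-TSS) and 28.0 (11 tags, 340 bp downstream, intron 1). The stromal ones held 67.4 (51 tags, 241 bp upstream) and 76.6 (58 tags, 220 bp downstream, exon 1). All 4 H3K9ac peaks overlapped their counterpart in the other condition.

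The summed level of IFNAR1 was thus 50.9 in astromal and 144.0 in stromal H3K9ac, the latter at or above 99.7% of the genes in its list. The uncentred ratio was 1.50, or 2.82-fold. Against the median gene it was 0.61 with an interval of −0.09 to 1.38, and it was not called. IFNAR1 was the only one of the 8 with an H3K9ac ratio, beside 4.19% of 5129 genes called higher and 2.85% called lower. Without centring, or with peaks of at least 10 tags only (1.54), it would be called higher. The cut at 10 tags drops the astromal upstream peak of 9 tags and so sets 11 astromal tags against 109 stromal tags from both peaks.

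In H3K27ac, IFNAR1 had 41.6 (56 tags) in astromal and 28.5 (49 tags) in stromal spheroids. The centred ratio was −0.36 with an interval of −0.95 to 0.22 and was not called. The taller of its flanking peaks was not the same one in the 2 conditions. In astromal spheroids the upstream peak (chr21:34696768-34696964) held 27.5 (37 tags) and the downstream peak (chr21:34697291-34697487) 14.1 (19 tags). In stromal spheroids the upstream peak (chr21:34696863-34697037) held 9.89 (17 tags) and the downstream peak (chr21:34697541-34697715) 18.6 (32 tags).

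The upstream peak therefore held 66.1% of the IFNAR1 H3K27ac tags in astromal (interval 52.2 to 78.2) and 34.7% in stromal spheroids (21.7 to 49.6), a difference of −31.4 percentage points. In H3K9ac the upstream share was 45% (23.1 to 68.5) and 46.8% (37.2 to 56.6). Of 1097 genes with 1 H3K27ac peak on each side of the TSS in both lists, the taller side differed between conditions in 25.1%. The intervals also failed to overlap in 0.182%, which is 2 genes, IFNAR1 and SF3B1. The downstream H3K27ac peaks of IFNAR1 do not overlap between lists, since their centres lie 239 bp apart. This description of the sides was added after the IFNAR1 values had been seen.

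Over the 4 libraries the genes with levels most like those of IFNAR1, by Euclidean distance of log2 levels among 4329 genes, were ZBTB14 (0.219), PTPN12 (0.351) and RXRB (0.390). ZBTB14 had 48.4 and 128.2 in astromal and stromal H3K9ac and 38.6 and 27.4 in H3K27ac. IFNAR1 was the only one of the 8 with a level in all 4 libraries, so no such list could be made for the others.

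JAK2, the kinase of the interferon gamma receptor and of several cytokine receptors, was the only one of the 8 called in H3K27ac between conditions. Its TSS is at chr9:4985245 on the plus strand. Astromal H3K27ac had 2 peaks, one of 23.0 (31 tags, chr9:4984467-4984663) centred 680 bp upstream and one of 7.43 (10 tags, chr9:4985114-4985310) next to the TSS. Stromal H3K27ac had 1 peak, of 6.4 (11 tags, chr9:4984536-4984710), centred 622 bp upstream. The JAK2 level went from 30.4 to 6.4, and the astromal value is at or above 73.9% of genes in its list and the stromal one 4.13%.

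H3K27ac at JAK2 fell by 2.07 on the log2 scale, with an interval of −3.18 to −1.08, which is 4.19-fold. Among all 7104 genes with H3K27ac promoter peaks in both lists, 6.36% were called lower and 5.25% higher. The call held in 9 of 9 other settings that gave a value, from −2.25 to −1.02. Several of these could not test it, since they left the JAK2 tags unchanged. The wider TSS window, the cut by tags and the wider H3K27ac window returned −2.07 again. The narrower H3K27ac window (−2.06), peaks at any distance (−2.08) and no centring (−2.25) changed only the centring. The JAK2 level was measured anew only by the highest peak (−1.64), the score (−1.71) and the level per kb of peak width (−1.02). With peaks of at least 8-fold over input only, no ratio was left, since the stromal peak stood 7.37-fold over an input of 1 tag and the taller astromal peak 75.5-fold over 0.4 scaled input tags.

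H3K9ac at JAK2 was found in the stromal list only, so the marks cannot be set side by side across conditions. It had 30.4 (23 tags) centred 704 bp upstream and 23.8 (18 tags) centred 325 bp downstream, in the 5′ UTR of exon 1, for a level of 54.2. At an equal level the taller peak would have given 11.9 tags in the shallower astromal library, and 6.44 at the ratio of the median gene, where the weakest peak has 5.

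STAT2 and IRF9, both parts of ISGF3, had H3K27ac peaks in both conditions. The STAT2 TSS is at chr12:56754037 on the minus strand. Its H3K27ac level was 29.0 (39 tags) in astromal and 24.5 (42 tags) in stromal spheroids, in each case from 1 peak on either side of the TSS. The centred ratio was −0.06, with an interval of −0.73 to 0.60.

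At STAT2 the upstream peak was the taller one in both conditions, with 20.8 against 8.18 in astromal and 14.0 against 10.5 in stromal H3K27ac. Its share of tags was 71.8% (55.1 to 85.0) and 57.1% (41.0 to 72.3), so the side did not switch as at IFNAR1. H3K9ac was in the stromal list only, with 23.8 (18 tags) and 21.1 (16 tags), a level of 44.9. The H3K9ac peak of 23.8, centred 427 bp downstream, is annotated to the end of a neighbouring transcript.

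IRF9, the DNA-binding part of ISGF3, had a single peak in each of 3 libraries and none in astromal H3K9ac. All lay downstream of its TSS at chr14:24630422 on the plus strand. H3K27ac was 8.92 (12 tags, chr14:24630588-24630784) in astromal and 12.2 (21 tags, chr14:24630695-24630869) in stromal spheroids. The centred ratio of 0.64 had an interval of −0.45 to 1.79 and was not called. Stromal H3K9ac was 34.3 (26 tags, chr14:24630489-24630699, annotated to the end of a neighbouring transcript), the tallest single H3K9ac peak among the 7 stromal-only genes. It would have given 13.5 astromal tags at an equal level and 7.28 at the ratio of the median gene.

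IRF1, a transcription factor that interferon gamma induces through the GAS element, had opposite lists for the marks at its promoter (TSS chr5:131826465, minus strand). Stromal H3K9ac had 26.4 (20 tags, chr5:131826703-131826913) upstream and 18.5 (14 tags, chr5:131826207-131826417) in the 5′ UTR of exon 1, and astromal H3K9ac had none. Astromal H3K27ac had 11.1 (15 tags, chr5:131826834-131827030), centred 467 bp upstream, and stromal H3K27ac had none. This peak would have given 19.2 stromal tags at an equal level and 16.9 at the ratio of the median gene, and the weakest stromal peak has 9.

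A second acetylated stretch lay in intergenic sequence at −7000 to −4000 bp from the IRF1 TSS. It held the only astromal H3K9ac peak of the gene, of 20.4 (8 tags, chr5:131831237-131831437), and 3 stromal H3K9ac peaks with 66.0 (50 tags) in all. The stromal peak at chr5:131831321-131831531, of 27.7 (21 tags), overlapped the astromal one, and those of 17.2 and 21.1 further upstream did not. H3K27ac in this stretch was 7.43 (10 tags) in astromal, centred 5963 bp upstream, and 6.4 (11 tags) in stromal spheroids, centred 4952 bp upstream. Summed over the promoter and this stretch, IRF1 would be called higher in stromal H3K9ac (1.46) and lower in H3K27ac (−1.37). Both sums count a promoter without a called peak as 0, with 34 stromal H3K9ac tags and 15 astromal H3K27ac tags on the other side. The overlapping H3K9ac peak alone had 21 stromal tags, below the 28.6 expected from its 8 astromal tags at the ratio of the median gene. With H3K27ac peaks taken within 5 kb of the promoter H3K9ac peaks, its ratio was −0.62 and was not called.

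Of the H3K9ac peaks more than 1 kb from a TSS, 66.7% of 991 in the astromal list overlapped a stromal peak and 13.9% of 4785 in the stromal list overlapped an astromal one. The IRF1 stretch, with 1 of 1 astromal and 1 of 3 stromal peaks shared, is a single case beside those shares. The stretch is assigned to IRF1 only as the nearest TSS in the lists.

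**Figure D2:**
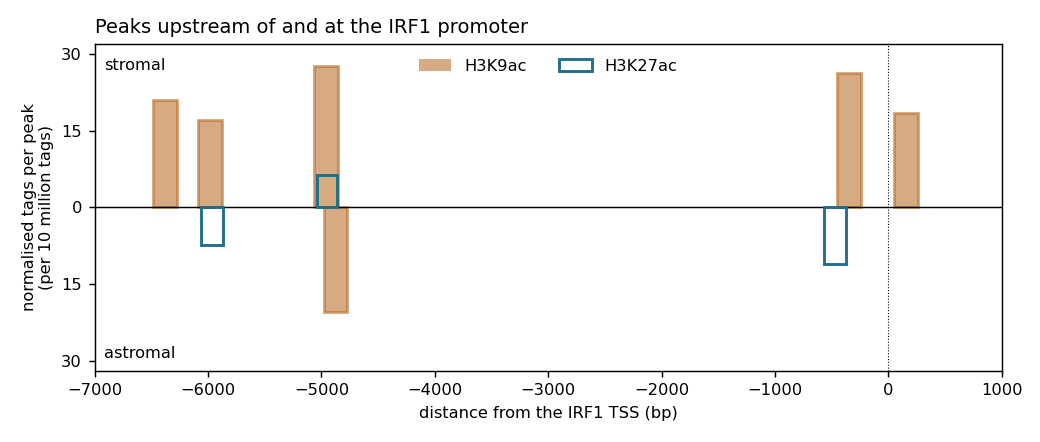
The horizontal axis is the distance from the IRF1 TSS in bp and the vertical axis the normalised tags per peak (per 10000000), stromal upwards and astromal downwards. Filled boxes are H3K9ac and open boxes H3K27ac at their called width. H3K9ac stands at both stretches in stromal but only at the upstream one in astromal spheroids, while the promoter H3K27ac box of 11.1 is astromal.

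DDX58, which encodes the RNA sensor RIG-I, and ISG15, a ubiquitin-like protein attached to other proteins after interferon, had both marks in stromal spheroids and no called promoter peak in astromal ones. For DDX58 (TSS chr9:32526322, minus strand) stromal H3K9ac was 18.5 (14 tags, chr9:32525839-32526049, intron 1) and 11.9 (9 tags, chr9:32526818-32527028). Its stromal H3K27ac peak held 5.82 (10 tags, chr9:32526402-32526576), at or above only 1.03% of the genes in the list. The nearest astromal H3K27ac peak lay 25067 bp away. The DDX58 H3K27ac peak would have given 7.83 astromal tags at an equal level and 8.89 at the ratio of the median gene, and the weakest astromal peak has 8.

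ISG15 has its TSS at chr1:948847 on the plus strand. Stromal H3K9ac was 18.5 (14 tags, chr1:948861-949071, intron 1) and 15.9 (12 tags, chr1:949414-949624, exon 2), and stromal H3K27ac 7.56 (13 tags, chr1:948195-948369), centred 565 bp upstream. The nearest astromal H3K27ac peak lay 12256 bp away. An equal level would have given 10.2 astromal tags and the ratio of the median gene 11.6, both above the weakest peak of that list. H3K27ac in the stromal list only was seen at these 2 of the 8 genes, beside 5.24% of all genes and 2 of 51 other pathway genes. The 5.24% covers genes of every level, while DDX58 and ISG15 stood at or above only 1.03% and 11.4% of genes in the stromal list. No share at matched levels was taken for H3K27ac.

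HLA-B, a classical class I chain that presents peptides to T cells, had H3K9ac in stromal spheroids and no H3K27ac peak in either condition. Its TSS is at chr6:31324989 on the minus strand. The H3K9ac peaks held 22.5 (17 tags, chr6:31324741-31324951, intron 1) and 21.1 (16 tags, chr6:31325151-31325361), a level of 43.6. HLA-C (27.7) showed the same lists, with stromal H3K9ac and no H3K27ac. The class I genes are near-identical in places and the handling of reads with several positions is not given in the sources used here, so these levels are uncertain.

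In H3K27ac the 8 genes thus divided into 4 in both lists, 2 in the stromal list only, 1 (IRF1) in the astromal list only and 1 (HLA-B) in neither. Over all genes the shares were 65.6%, 5.24%, 7.81% and 21.3%. The median of the 4 ratios was −0.21. By single peaks, 5 of 9 H3K27ac peaks of each list overlapped the other list. The shares were 60.8% of all astromal and 58.4% of all stromal H3K27ac peaks, near H3K9ac or not. In H3K9ac 3 of 3 astromal peaks and 3 of 18 stromal peaks did, beside 75.8% and 26.6% of all peaks.

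**Figure D3:**
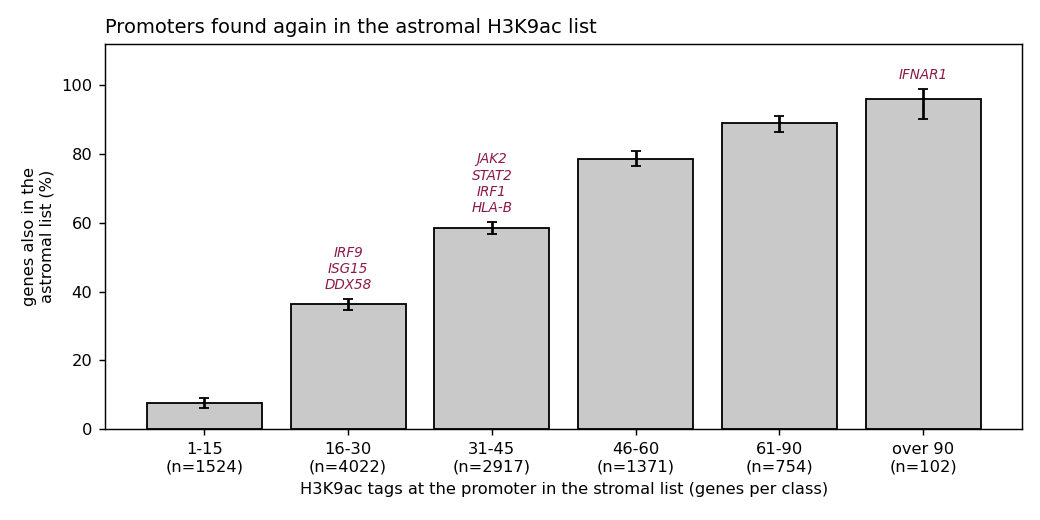
Bars give the percent of genes with stromal H3K9ac that also have an astromal H3K9ac promoter peak, by stromal tags at the promoter, with the number of genes under each class and exact 95% intervals. The 8 genes are named above their class. The share goes from 7.55% at 1 to 15 tags to 96.1% over 90 tags, the class of IFNAR1.

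How often a promoter reappeared in the astromal H3K9ac list followed its stromal tags. IRF9, ISG15 and DDX58 had 16 to 30 tags, a class in which 36.3% of 4022 genes (interval 34.8 to 37.8) were also astromal. JAK2, STAT2, IRF1 and HLA-B had 31 to 45 tags, where 58.5% of 2917 genes (56.7 to 60.3) were. IFNAR1 had over 90 tags, with 96.1% of 102 genes. The plot of detection by stromal tags shows these classes for all genes. For the stromal-only genes the astromal tags expected at an equal level ran from 4.66 at the upstream DDX58 peak to 13.5 at IRF9, and at the ratio of the median gene from 2.52 to 7.28.

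The other genes of the pathway were 87 listed by name, of which 51 had a promoter H3K9ac peak in either list. Of these, 26 were in both H3K9ac lists, 25 in the stromal list only and none in the astromal list only, beside 47.4%, 51.4% and 1.22% of all genes. In H3K27ac the shares over all genes were 65.6% in both lists, 5.24% stromal only, 7.81% astromal only and 21.3% in neither. Of the 51 genes, 32 were in both H3K27ac lists, 2 in the stromal list only (PML with 6.98 among them), 4 in the astromal list only and 13 in neither. The astromal-only genes were IFNGR1 (20.8), the ligand-binding chain of the interferon gamma receptor, PARP9 (9.66), TRIM21 (8.92) and SOCS3 (7.43), an inhibitor of JAK kinases. The highest stromal-only H3K9ac levels were those of IRF3 (63.4), UBE2L6 (60.8), the enzyme that passes ISG15 on, and EIF2AK2 (54.2), the kinase PKR.

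The groups of the list are small and were not tested against the shares over all genes, 47.4% in both H3K9ac lists and 51.4% stromal only. Of 6 receptor and kinase genes with promoter H3K9ac, 5 had it in both lists and JAK1 (46.2) was stromal only. Of 17 response genes 6 were in both lists and 11 stromal only, MX1 (19.8), OAS2 (11.9) and OAS3 (15.9) among them. MX1, OAS2, OAS3 and UBE2L6 had no H3K27ac in either condition. The transcription factors split 3 and 2, the inhibitors 2 and 3, the sensors and adaptors 4 and 5, and the antigen presentation genes 6 and 3. No H3K9ac promoter peak was called in either list for 22 of 39 response genes, IFI27, IFI44L, RSAD2 and CXCL10 among them.

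Between conditions, 0 of 26 pathway genes were called higher in H3K9ac and 2 lower, beside 4.19% and 2.85% of all genes. These were IFNGR1, from 35.6 to 19.8 (−1.74), and MAVS, the adaptor of RIG-I, from 50.9 to 46.2 (−1.03). Their lower call is against a median gene that stood 1.85-fold higher in stromal. The median over the 26 was 0.03.

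In H3K27ac 2 of 32 were called higher and 3 lower, beside 5.25% and 6.36% of all genes, with a median of −0.03. IRF2, a repressor of interferon genes, went from 9.66 to 18.6 (1.13), and USP18, which removes ISG15 and blocks the receptor, from 11.1 to 19.8 (1.01). STAT3 went from 31.3 (44 tags) to 13.4 (23 tags), a ratio of −1.11 by tags. MAVS went from 25.2 to 10.5 (−1.13) and HLA-E from 23.0 to 8.73 (−1.22). None of these reached the ratio of JAK2, as the plot of H3K27ac ratios shows.

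**Figure D4:**
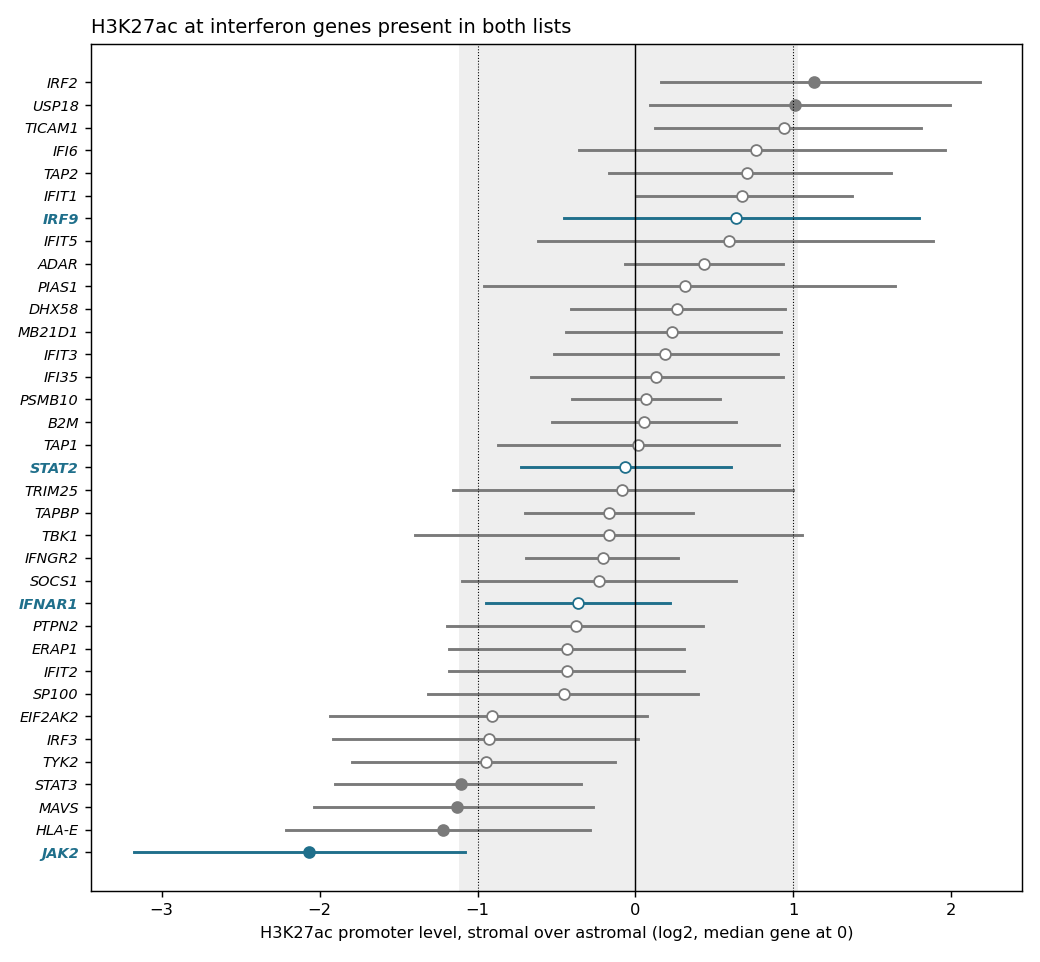
The horizontal axis is the log2 ratio of H3K27ac promoter levels, stromal over astromal, with the median gene at 0, for interferon genes present in both lists. Bars are exact 95% counting intervals, filled points are called, dotted lines mark 2-fold, and the grey band spans the 5th to 95th percentile of all genes, −1.11 to 1.02. JAK2 lies lowest at −2.07, and IFNAR1, STAT2 and IRF9, in blue, lie inside the band.

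The marks were also compared within a condition, as the log2 ratio of H3K27ac over H3K9ac set to 0 at the median gene. In astromal spheroids only IFNAR1 had both marks, with 41.6 and 50.9, a ratio of −0.10 and an interval of −0.86 to 0.72. It was not called, beside 7.68% of 4737 genes called higher and 6% lower.

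In stromal spheroids 6 of the 8 genes had both marks, and 2 were called lower, IFNAR1 and JAK2, beside 12.6% of 7567 genes lower and 13.5% higher. IFNAR1 had 28.5 in H3K27ac and 144.0 in H3K9ac, a ratio of −1.02 with an interval of −1.54 to −0.52. JAK2 had 6.4 and 54.2, a ratio of −1.76 with an interval of −2.87 to −0.78. Both calls were lost when only the highest peak of each list was used (−0.67 and −0.87), and that of IFNAR1 also with H3K27ac peaks within 1 kb (−0.96).

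STAT2 was the one gene on the other side by summed levels, with 24.5 and 44.9 and a ratio of 0.44 (−0.25 to 1.14). IRF9 had −0.17 (−1.08 to 0.71), ISG15 −0.86 (−1.95 to 0.15) and DDX58 −1.07 (−2.30 to 0.06), none of them called. With only the highest peak of each list, ISG15 had 0.09, on the side of STAT2 (0.61), and IRF9 had −0.12 and DDX58 −0.29. The median over the 6, by summed levels, was −0.94. Over 34 other pathway genes with both marks it was 0.03, with 2 called higher (IFI6 and IFIT2) and 6 lower (IRF3, PTPN2, TRIM25, IFIT5 and EIF2AK2 among them). At JAK2, ISG15 and DDX58 the sums set 2 H3K9ac peaks against 1 H3K27ac peak. These medians were not compared with only the highest peak, where 0 of the 6 were called. In astromal spheroids the other pathway genes had a median of 0.07, with 0 of 23 called higher and 2 lower (IRF2 and PTPN2).

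**Figure D5:**
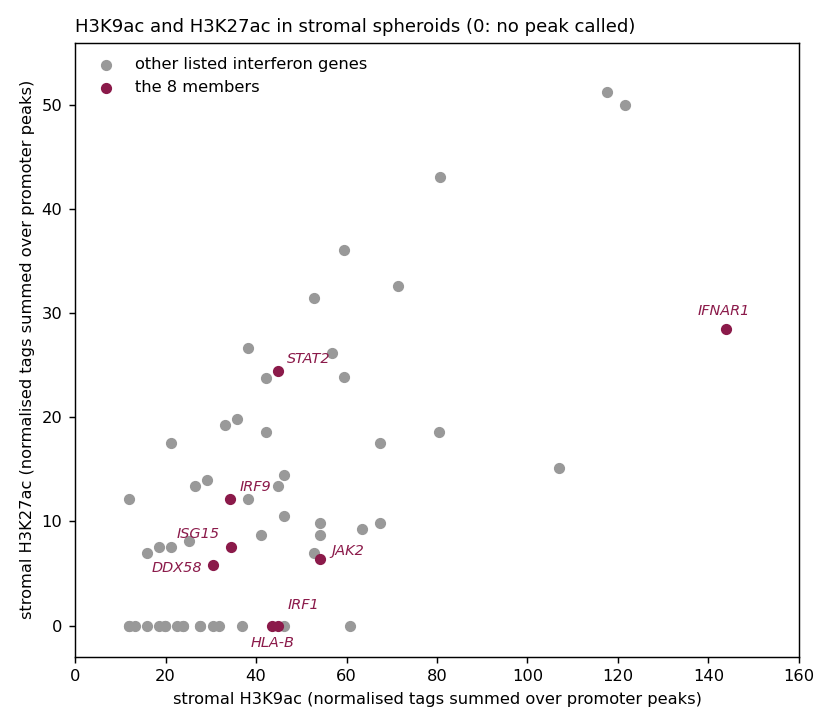
Each point is one of the 8 genes or of the listed pathway genes that has an H3K9ac promoter peak, with its stromal H3K9ac level on the horizontal axis and its stromal H3K27ac level on the vertical axis, both in normalised tags per 10000000 summed over promoter peaks. A level of 0 means no called peak. Of these genes IFNAR1 lies furthest to the right at 144.0, with H3K27ac of 28.5, and IRF1 and HLA-B lie at 0 for H3K27ac.

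Peaks of the 2 marks overlapped at some of these genes and lay apart at others. In astromal spheroids 2 of 3 H3K9ac peaks overlapped an H3K27ac peak and 2 of 9 H3K27ac peaks an H3K9ac peak, beside 59.7% and 29.4% over all peaks of these lists. In stromal spheroids 5 of 18 H3K9ac peaks and 5 of 9 H3K27ac peaks did, beside 39.9% and 53.7%. The H3K27ac counts are not like for like with 29.4% and 53.7%. The 9 peaks of each list were taken for lying within 2 kb of H3K9ac, and those shares cover every H3K27ac peak. At ISG15 the stromal H3K27ac peak lay upstream of the TSS and both H3K9ac peaks downstream of it, 684 bp apart at the nearest centres. At DDX58 it lay between the 2 H3K9ac peaks.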

How the data were processed

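Peak lists of 4 ChIP-seq libraries were used, 1 per mark and condition, and 4 inputs enter only through the authors' peak calling. The submitters' processing notes name CASAVA 1.8.2, Bowtie, HOMER and build hg19. H3K27ac peaks were called per library against its input at an FDR of 0.001, at least 4-fold over input and over the surrounding 10 kb, per the file headers. For H3K9ac the calling thresholds were not given in the sources used here.

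The deposited signal is tags per peak normalised to 10000000 tags. Raw tag counts are deposited for astromal H3K27ac. They do not always match the deposited signal, as at STAT3 with 44 tags beside 31.3, where 1 tag is worth 0.743. Stromal H3K27ac counts were the deposited signal scaled by the total tags of the header and rounded. Counts of both H3K9ac lists were recovered from the even steps of the deposited signal, which lay within 0.04 tag of whole numbers. The deposited fraction of tags in focus, the deposited p-values and the deposited fold over input and over the local region are the authors' own and only describe peaks. The deposited findPeaks score served as an alternative level.

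Start sites were rebuilt in hg19 from the distances in the lists, and the strand from the RefSeq table. Summed tags gave log2 ratios with exact intervals, computed for all genes with Python 3.11.15, pandas 2.3.3 and scipy 1.17.1 and checked on simulated counts. Labels name 1 sample per group, so intervals cover counting error only and nothing was tested between cultures. The genes, the pathway list, the markers and the motif letters were chosen with earlier results of these data known. All 8 genes are named. Other pathway genes are named where called, or among the 3 highest in 1 list only, and further names were added after their values were seen. A few genes of the list enter the counts but are not reported here by name. All 8 matched a RefSeq promoter. The alternatives were the highest peak, no centring, other distance windows, level per kb of peak width, at least 10 tags, at least 8-fold over input, the score, and a 50% overlap. The shifted ISRE core, overlap shares over all peaks and the tags expected at the ratio of the median gene were added after values or sequences had been seen.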

Additional observations from a re-analysis of the deposited data

How the results depend on the processing

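Of 73 values of single genes under an alternative 65 kept their call or size, and of 76 counts over the 8 genes 61 stayed within 1.5 times. The 73 values include settings that left a gene's own tags unchanged, as several did at JAK2 in H3K27ac. No value changed sign while called. Genes called lower for H3K27ac over H3K9ac in stromal spheroids, 2 as reported, were 0 with the highest peak only, 5 without centring and 1 with H3K27ac within 1 kb. Genes called higher in H3K9ac, 0 as reported, were 1 without centring (IFNAR1, 1.50), 1 with peaks at any distance (IRF1, 1.46) and 1 with at least 10 tags (IFNAR1, 1.54). The cut at 10 tags drops the astromal IFNAR1 peak of 9 tags. In both marks the IRF1 sums count a promoter without a called peak as 0. Genes called lower in H3K27ac, 1 as reported, were 2 with peaks at any distance (IRF1 added, −1.37, which was −0.62 and not called with H3K27ac within 5 kb) and 0 at 8-fold or more over input. With peaks at any distance 2 genes in place of 1 were in both H3K9ac lists, and 0 in place of 1 in the astromal H3K27ac list only, which was 2 at 8-fold or more. At an overlap of at least 50%, shared peaks of each list went from 3 to 1 in H3K9ac and from 5 to 3 in H3K27ac.

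No paired analysis was possible because each group is 1 library, and with no replicates none was left out. The weakest peak of the astromal H3K9ac list has 5 tags, worth 12.7 normalised tags, and IFNAR1 rests there on 20. A peak missing from that list sets no upper limit on acetylation. Fold over input at these genes rests on 0.4 to 2.5 scaled input tags in astromal and 0.5 to 1 in stromal H3K27ac.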
